A study of Mus musculus with 47 samples.

Results

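Cytokine mRNA decay factors were represented by 7 genes: Zfp36, Zfp36l1, Zfp36l2, Zc3h12a, Rc3h1, Rc3h2 and Elavl1. The members were taken by gene symbol from every deposited gene table. All 7 were found among the 51912 genes of the BMDM tables and in each of the Raw264.7 tables, which listed 12771 to 23772 genes. All 7 passed the filter on low values in all 11 comparisons.

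The study examined ZMYND8, a nuclear reader of acetylated chromatin, in macrophage inflammation. RNA-seq was used from 12 libraries, 6 of bone marrow-derived macrophages (BMDMs) and 6 labelled Raw264.7, a mouse macrophage cell line. The other 35 samples of the 47 were not analysed here. BMDMs came from C57BL/6 mice that were WT (Zmynd8 fl/fl littermates without Cre) or Zmynd8 cKO (the same floxed allele with Lyz2-Cre, which acts in myeloid cells including neutrophils). The age of the donor mice was not given in the sources used here. Marrow was grown in 20 ng/ml M-CSF, and cells were left untreated (NT, labelled M0) or given 100 ng/ml LPS (M1) or 20 ng/ml IL-4 (M2) for 6 h. Each BMDM library was a mix of 3 biological replicates. Of the Raw264.7 libraries, 3 came from Zmynd8 KO cells, either without a transgene, with Zmynd8 put back, or with D/E-A (ZMYND8 with acidic residues changed to alanine). The other 3 came from p65 KO cells, either without a transgene, with WT p65 or with p65 K122R. The p65 libraries were labelled with LPS, without dose or time, and the Zmynd8 lines carried no treatment in their labels, although the study's text describes the cells with Zmynd8 or D/E-A as treated with LPS. The knockouts were made with lentiviral guide RNAs, and whether a line was 1 clone was not given in the sources used here. The column headed WT with LPS was taken as WT p65 put back in p65 KO cells, from the sample's title.

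Every group had 1 library, so differences have no replicate check and no p-value is given. The NT, LPS and IL-4 pairs of BMDM libraries were deposited apart. Any difference between runs therefore cannot be told apart from the treatment in LPS against NT and IL-4 against NT. A gene is called higher or lower when the 2 libraries differed by at least 1.2-fold. Folds and log2 fold changes are of CPM + 1, or of normalised reads + 1 for Raw264.7, which understates the change of low genes. The range in brackets after a log2 fold change is its 95% interval (exact, Clopper-Pearson) from the number of reads, and it takes in nothing but counting error. Levels are given as CPM, counts scaled to the same library total, and levels between genes are compared only as deposited TPM, which also allow for transcript length. In bulk samples, fewer cells of a type and less RNA per cell cannot be told apart.

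Many cytokine mRNAs carry AU-rich elements in the 3' untranslated region, in which the pentamer AUUUA recurs. Zfp36 encodes tristetraprolin, a zinc finger protein that binds these elements and brings the CCR4-NOT deadenylase to the mRNA, and Zfp36l1 and Zfp36l2 encode its relatives. Zc3h12a encodes Regnase-1, an endonuclease that cuts stem-loops in inflammatory mRNAs, and Rc3h1 and Rc3h2 encode the stem-loop binding proteins Roquin-1 and Roquin-2. Elavl1 encodes HuR, which binds AU-rich and U-rich stretches and is known for stabilising its targets. In macrophages, LPS is known to induce tristetraprolin and Regnase-1, which limit the output of TNF and IL-6.

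The genes lie on separate chromosomes of mm10, as the files place them. Zfp36 is at chr7:28376784-28379228, Zfp36l1 at chr12:80107760-80113013, Zfp36l2 at chr17:84183924-84187947 and Zc3h12a at chr4:125118414-125127881, all on the minus strand. Rc3h2 at chr2:37370066-37423408 and Elavl1 at chr8:4284781-4325162 are also on the minus strand, and Rc3h1 at chr1:160906411-160974976 is on the plus strand. The mRNAs of the factors themselves carry the heptamer TATTTAT that tristetraprolin family proteins are known to bind. In the longest annotated 3' untranslated region of each gene (GENCODE vM21, GRCm38), it occurred 3 times in each of Zfp36, Zfp36l1, Zfp36l2 and Rc3h2, 2 times in Rc3h1, 8 times in Elavl1 and not at all in Zc3h12a. Of all 21020 genes with such a region, 27.6% held at least 1 copy, and of the 5439 with a region of 1500 to 3500 bases, as in Zfp36l1 and Zfp36l2, 44.7% did. Only the strand of the mRNA was searched, and overlapping copies were counted. Windows of 29 bases are given for 4 members, because the factors carry the element that the family reads, and for Tnf, the best known target, which held 8 copies. Capitals mark TATTTAT, in the letters of the DNA. The windows lie at chr7:28376951-28376979, chr12:80108422-80108450, chr17:84184914-84184942, chr8:4285784-4285812 and, for Tnf, chr17:35199689-35199717, all on the minus strand.
Zfp36: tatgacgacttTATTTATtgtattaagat
Zfp36l1: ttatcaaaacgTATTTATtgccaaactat
Zfp36l2: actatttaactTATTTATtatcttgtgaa
Elavl1: tgaaaatTATTTATTTATTTATTTATttt
Tnf: tttgcacttatTATTTATTATTTATTTAT
A match describes letters only and is not evidence of binding. In Zfp36 the 3 copies fell within a region of 774 bases, a density of 3.88 copies per kilobase, against 10.5 in Tnf and 0.311 over all regions pooled. The density was 1.90 in Elavl1, 1.65 in Zfp36l2, 1.63 in Zfp36l1, 0.563 in Rc3h2 and 0.279 in Rc3h1.

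Promoter sequence, 250 bases before to 50 after the start, was at hand from RefSeq for 6 of the 7 members (GRCm38.p6). Zfp36l2 had no entry. None of the 6 windows matched the NF-κB consensus on either strand, against 4.51% of 32851 promoters. None held TTC and GAA with 4 bases between them, the spacing that STAT6 is known to prefer, against 6.95% of promoters. TATAAA was found in Zfp36l1 alone, 29 bases before the start, against 13.6% of promoters. It shares 1 base with the only CCAAT match of that window, which is on the reverse strand. CCAAT matched in 37.4% of promoters, and the Elavl1 window had 2 matches, on the forward strand. No match says only that these letters are not in the window. The Zfp36l1 promoter is shown because Zfp36l1 had the largest ratio of highest to lowest CPM among the members in BMDMs. It lies at chr12:80112964-80113263 on the minus strand, with TATAAA and the reverse CCAAT in capitals.
Zfp36l1: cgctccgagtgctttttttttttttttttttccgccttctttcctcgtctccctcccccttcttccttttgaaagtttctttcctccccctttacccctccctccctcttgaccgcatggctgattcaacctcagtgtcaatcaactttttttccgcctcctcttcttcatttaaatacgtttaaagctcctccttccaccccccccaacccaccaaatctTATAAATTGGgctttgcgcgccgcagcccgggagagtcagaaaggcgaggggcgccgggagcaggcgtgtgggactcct

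Several libraries stood apart from their labels or from each other. The BMDM libraries held 22597408 to 28386612 counts and the Raw264.7 libraries 15127110 to 21042628 recovered reads. All 8 macrophage markers were detected in every library. Zmynd8 itself was 87.1 CPM in WT and 81.5 CPM in the library labelled cKO without treatment, 79.0 and 86.8 CPM after LPS, and 128 and 151 CPM after IL-4. Cre removes only a part of the gene, so these gene totals do not check the deletion. In the Raw264.7 lines Zmynd8 was 116 normalised reads in Zmynd8 KO (the 1 value there that was not a whole number of reads) against 506 with Zmynd8 put back, and Rela, which encodes p65, was 778 in p65 KO against 1574 in WT p65. Rela was 5963 in K122R against 1571 in WT p65, so total Rela mRNA was not alike in the 2 lines. This total also counts mRNA of the edited gene, and p65 protein was not measured here. Xist, which is transcribed in female cells, was 740 CPM in WT and 323 CPM in cKO without treatment, 246 and 429 CPM after LPS, and 1108 and 1057 CPM after IL-4, and its part in the differences between genotypes was not tested. The 9 neutrophil markers summed to 2.37 to 4.22 CPM in the NT and LPS libraries and to 383 and 515 CPM after IL-4. They summed to 4439 to 10423 CPM in the 3 libraries of the Raw264.7 Zmynd8 lines, in which Xist had 7109 to 8467 reads. Of the 9, 3 were listed in the tables of the p65 lines, where they summed to 0.180 to 0.319 CPM and Xist had 0 to 3 reads. The 2 sets of libraries labelled Raw264.7 thus stood apart, and no level is compared between them. Of the other BMDM marker lists, the largest sum was 29.1 CPM (T cells, with Cd3d and Cd3e at 0 in that library).

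The most abundant decay factor in untreated and LPS-treated WT BMDMs was Zfp36, at 115 and 282 TPM. In untreated WT BMDMs Zfp36l2 came next at 98.0 TPM, then Elavl1 at 46.0, Zfp36l1 at 38.7, Zc3h12a at 9.33, Rc3h1 at 6.11 and Rc3h2 at 5.25 TPM. After LPS the order in WT was Zfp36, Zc3h12a at 33.4, Zfp36l2 at 32.8, Elavl1 at 19.5, Zfp36l1 at 5.05, Rc3h2 at 3.37 and Rc3h1 at 2.21 TPM. After IL-4, Zfp36l1 and Zfp36 stood side by side at 200 and 198 TPM, ahead of Zfp36l2 at 99.02, Zc3h12a at 73.4, Elavl1 at 29.2, Rc3h1 at 8.70 and Rc3h2 at 6.86 TPM. Zfp36l1 thus held rank 4 without treatment and rank 5 after LPS in both genotypes, and after IL-4 rank 1 in WT and rank 2 in cKO. With 1 library per condition, neighbours as close as Zc3h12a and Zfp36l2 after LPS, or Zfp36l1 and Zfp36 after IL-4, cannot be ordered. The 2 Roquin mRNAs were the least abundant in every BMDM library.

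Zfp36 was higher after LPS and after IL-4 in both genotypes. Its level was 199 CPM in both NT libraries, 520.1 CPM in WT and 599 in the library labelled cKO after LPS, and 343 and 309 CPM after IL-4. LPS gave a log2 fold change of 1.38 (1.34 to 1.43) in WT and 1.58 (1.54 to 1.63) in cKO, and IL-4 gave 0.78 (0.73 to 0.83) and 0.63 (0.58 to 0.69). The genotypes differed by less than 1.2-fold in all 3 conditions in CPM, whereas in deposited TPM the pair after LPS, 282 in WT and 343 in cKO, passed that fold.

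Zfp36l1 moved in opposite directions under the 2 stimuli. Its level was 76.2 CPM in WT and 57.0 CPM in cKO without treatment, 10.4 and 12.9 CPM after LPS, and 387 and 325 CPM after IL-4. The LPS change was -2.75 (-2.93 to -2.58) on the log2 scale in WT and -2.06 (-2.23 to -1.89) in cKO. IL-4 gave 2.33 (2.26 to 2.40) in WT and 2.49 (2.40 to 2.57) in cKO, folds of 5.02 and 5.61. The libraries of the 3 conditions did not overlap, whichever genotype was taken, and for how many other genes this holds was not counted. Of the tested genes, 2.70% in WT and 8.68% in cKO were lower after LPS than Zfp36l1 was. After IL-4 it lay above 97.9% of them in WT and 97.3% in cKO.

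Zfp36l2 was lower after LPS and near its untreated level after IL-4. It was 231 CPM in WT and 160 CPM in cKO without treatment, 81.2 and 90.7 CPM after LPS, and 226 and 171 CPM after IL-4. The LPS change was -1.50 (-1.57 to -1.42) in WT and -0.81 (-0.89 to -0.73) in cKO. With IL-4 the changes were -0.03 and 0.10, under the fold of 1.2. Of the tested genes, 17.6% in WT and 40.0% in cKO were lower after LPS than Zfp36l2 was, so in cKO its fall was close to the middle of all genes.

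Zc3h12a was higher under both stimuli, and more so under IL-4. Its level was 16.3 CPM in WT and 18.9 CPM in cKO without treatment, 58.4 and 75.5 CPM after LPS, and 126 and 154 CPM after IL-4. The folds of CPM + 1 were 3.43 in WT and 3.84 in cKO for LPS, and 7.32 and 7.77 for IL-4. The median log2 fold change of all tested genes was -0.58 for LPS and 0.15 for IL-4 in WT. It was -0.55 and 0.17 in cKO, so the size of the gap between stimuli depends on scaling. After IL-4 Zc3h12a lay above 98.6% of tested genes in WT and 98.2% in cKO. The cKO library was the higher of the pair in each condition, past 1.2-fold after LPS, at 1.29-fold, and after IL-4, at 1.22-fold.

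**Figure D1:**
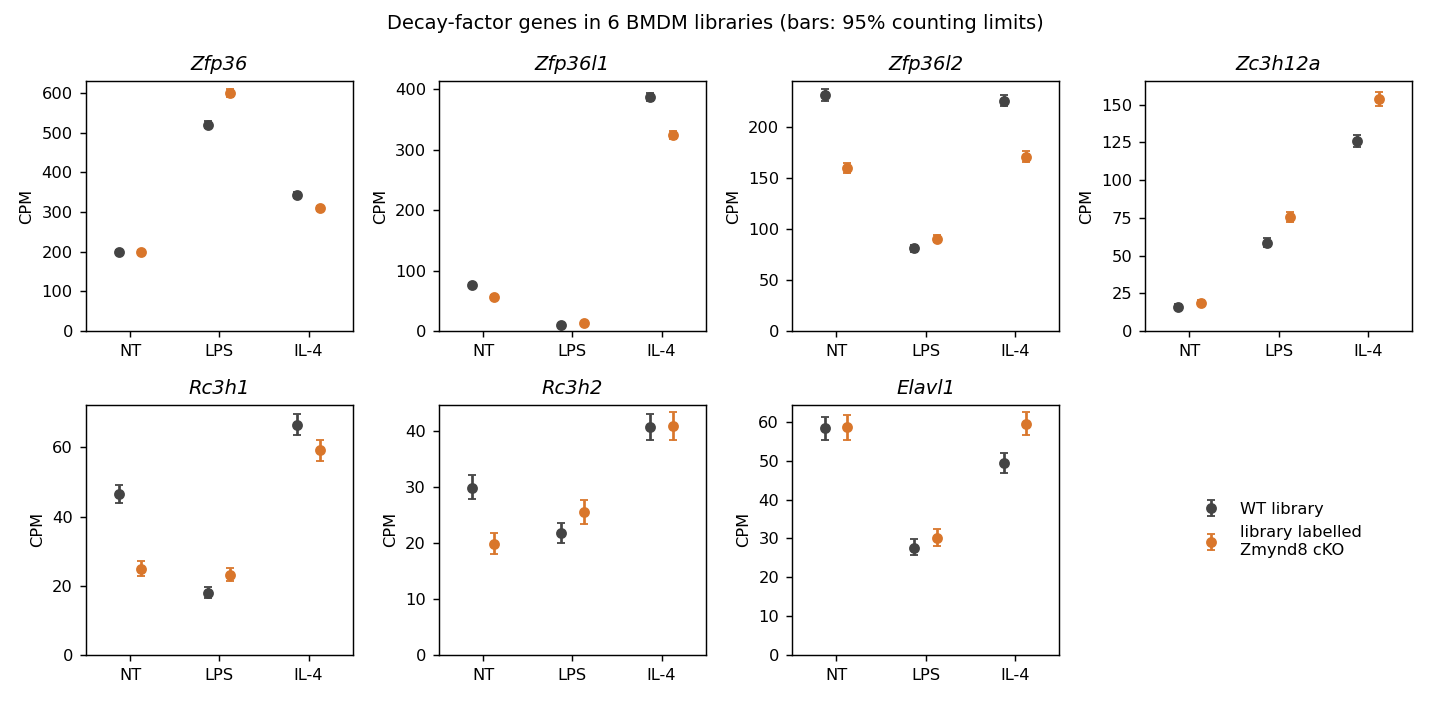
Level of each decay factor gene in CPM (linear axis from 0) in the 6 BMDM libraries, by treatment (x axis) and genotype (colour), 1 library per point, with 95% exact Poisson counting limits as bars. Zc3h12a runs from 16.3 to 154 CPM with IL-4 highest in both genotypes, Zfp36l1 from 10.4 CPM after LPS to 387 CPM after IL-4, and Rc3h1 at NT is 46.4 CPM in WT and 24.9 CPM in the library labelled cKO.

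Rc3h1 and Rc3h2 were highest after IL-4. Rc3h1 was 46.4 CPM in WT and 24.9 CPM in cKO without treatment, 18.0 and 23.2 CPM after LPS, and 66.6 and 59.1 CPM after IL-4. Rc3h2 was 29.9 and 19.8 CPM without treatment, 21.7 and 25.5 CPM after LPS, and 40.7 and 40.9 CPM after IL-4. The largest gap between genotypes in CPM was that of Rc3h1 without treatment, where the cKO library held 563 counts and the WT library 1217. With the length median taken off, the gaps of Zfp36l1 and Zfp36l2 were larger in that pair. After LPS, Rc3h1 changed by -1.32 (-1.47 to -1.17) in WT and by -0.10 (-0.26 to 0.07) in cKO, while the LPS libraries themselves differed by 1.28-fold. With median-of-ratios scaling the change was -0.64 in WT and turned to 0.54 in cKO, and with TMM it was -0.76 and 0.44, past the fold as higher in cKO under both. With the length median taken off it was -0.46 in WT and 0.04 in cKO, and the medians of all genes of at least 8000 bases were -0.88 and -0.08. After IL-4 Rc3h1 changed by 0.51 in WT and 1.21 in cKO, and Rc3h2 by 0.43 and 1.01. Long transcripts were higher after IL-4 as a whole: of genes of at least 8000 bases 57.9% were higher in WT and 75.2% in cKO. With the median of genes of like length taken off, Rc3h1 was at 0.19 in WT and 0.44 in cKO and Rc3h2 at 0.11 and 0.24, of which only the 0.44 is past the fold. Rc3h2 was lower after LPS by 0.44 on the log2 scale in WT, a value of -0.44 (-0.60 to -0.29), which turned to 0.24 with median-of-ratios scaling and 0.12 with TMM, and it was higher by 0.35 (0.18 to 0.52) in cKO. These scalings moved the median of all genes in cKO from -0.55 to 0.01 and -0.08, so the 0.35 is larger with either.

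Elavl1, the stabilising factor of the set, was lower after LPS. It was 58.3 CPM in WT and 58.5 CPM in cKO without treatment, 27.6 and 30.2 CPM after LPS, and 49.4 and 59.5 CPM after IL-4. The LPS change was -1.05 (-1.18 to -0.92) in WT and -0.93 (-1.06 to -0.80) in cKO, and of all tested genes 31.0% and 35.3% were lower still. The IL-4 change in CPM was under the fold, at -0.23 in WT and 0.02 in cKO, but in WT it was past the fold with median-of-ratios scaling, at -0.40, with TMM, at -0.41, and in deposited TPM, at -0.64. With the length median taken off it was past the fold as lower in both genotypes, at -0.45 in WT and -0.51 in cKO.

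In counts over the set, LPS against NT left 2 members higher and 5 lower in WT, where 21.7% of 12813 tested genes were higher and 63% lower. In cKO 3 were higher and 3 lower, where 25% of 12666 genes were higher and 60.5% lower. The members' median was -1.05 in WT and -0.10 in cKO, and that of all tested genes was -0.58 and -0.55. The direction of a small change after LPS therefore depends on scaling: median-of-ratios scaling moved the median of all genes to 0.01 in both genotypes. With that scaling Zfp36, Zfp36l1, Zfp36l2, Zc3h12a and Elavl1 kept their directions in both genotypes, although Zfp36l2 in cKO, at -0.15, was then under the fold. IL-4 against NT left 5 members higher and none lower in WT, where 41.3% of 13090 genes were higher and 23.1% lower. In cKO it also left 5 higher and none lower, where 44.7% of 12966 genes were higher and 26.2% lower. With median-of-ratios scaling Elavl1 was also called lower in WT. With the length median taken off, 3 members were higher and 1 lower in WT, and 4 were higher and 1 lower in cKO. The medians in CPM were 0.51 and 1.01, against 0.15 and 0.17 over all genes. At 2-fold in either direction, LPS moved 6 members in WT, against 43.3% of genes, and 3 in cKO, against 46%. IL-4 moved 2 members in WT, against 16.2%, and 4 in cKO, against 21.1%. The NT library of each genotype serves both treatment comparisons, so these share a control. The IL-4 libraries held the neutrophil markers given above, and their part in the IL-4 differences was not tested.

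**Figure D2:**
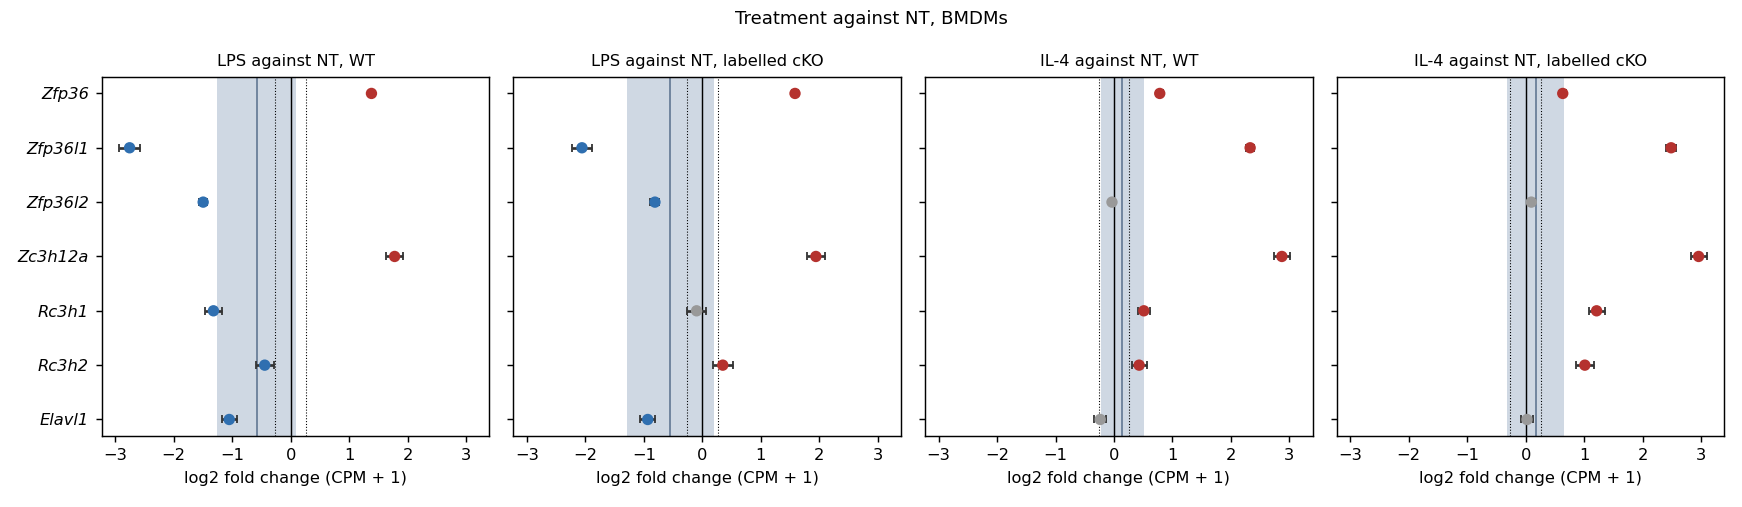
Log2 fold change (CPM + 1) of each member for LPS or IL-4 against NT in WT and in libraries labelled Zmynd8 cKO, with 95% counting limits (bars), red for at least 1.2-fold higher, blue lower and grey neither. The line and band mark the median of all tested genes and 1 median absolute deviation on each side, and the dotted lines mark 1.2-fold. Zc3h12a lies right of the band in all 4 panels, and Zfp36l1 lies left of it after LPS and right of it after IL-4.

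The comparison of Zmynd8 cKO with WT asked whether loss of ZMYND8 changes the decay factors. Without treatment 4 members were lower in the library labelled cKO and none was higher, where 29% of 12463 tested genes were lower and 25% higher. These were Rc3h1 at -0.87 (-1.01 to -0.73), Rc3h2 at -0.57 (-0.74 to -0.41), Zfp36l2 at -0.53 (-0.59 to -0.47) and Zfp36l1 at -0.41 (-0.51 to -0.31). Zfp36 at -0.00, Elavl1 at 0.01 and Zc3h12a at 0.20 were under the fold. In the same pair 4 of 6 LPS response genes were lower and 1 higher, with a median of -0.88, and 5 of 8 macrophage markers were lower and 1 higher, with a median of -0.37, and their part was not tested. The median of the members was -0.41 and that of all genes -0.01. In deposited TPM, Elavl1 was 46.0 in WT and 33.9 in cKO although its CPM were alike, and Zfp36 was 115 and 95.8, so the 2 deposited units differ for this pair.

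After LPS 3 members were higher in the cKO library and none was lower, where 22.6% of 12386 tested genes were higher and 13.3% lower. They were Zc3h12a at 0.36 (0.26 to 0.46), Rc3h1 at 0.35 (0.18 to 0.53) and Zfp36l1 at 0.28 (0.06 to 0.51). The remaining 4 lay between 0.12 and 0.22, all under the fold in CPM, while in deposited TPM Zfp36 at 0.28 and Rc3h2 at 0.30 passed it. Zfp36l1 rested on the fewest counts, 303 against 260, and fell under the fold, at 0.25, with median-of-ratios scaling and with TMM. The median of the members was 0.22 and that of all genes 0.03.

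After IL-4 2 members were higher in the cKO library and 1 was lower, where 17.3% of 13245 tested genes were higher and 13.4% lower. Zc3h12a was higher at 0.29 (0.22 to 0.35), Elavl1 was at the edge of the rule at 0.26 (0.16 to 0.37), and Zfp36l2 was lower at -0.40 (-0.45 to -0.34). The Elavl1 call was lost with median-of-ratios scaling and with TMM, at 0.25 in each. Zfp36l1 at -0.25 lay just under the fold. Of 8 tested neutrophil markers 6 were higher in the same pair, as were 5 of 6 LPS response genes, and none of either was lower. Their part was not tested. No member differed by 2-fold between the genotypes in any condition, and 3.83% of genes did without treatment, 0.904% after LPS and 1.97% after IL-4. Zfp36l2 was among those lower in cKO without treatment and after IL-4, and Zc3h12a among those higher after both stimuli. Rc3h1 and Zfp36l1 were lower in cKO without treatment and higher after LPS. The share of all genes called in the same pairs of conditions was not counted.

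**Figure D3:**
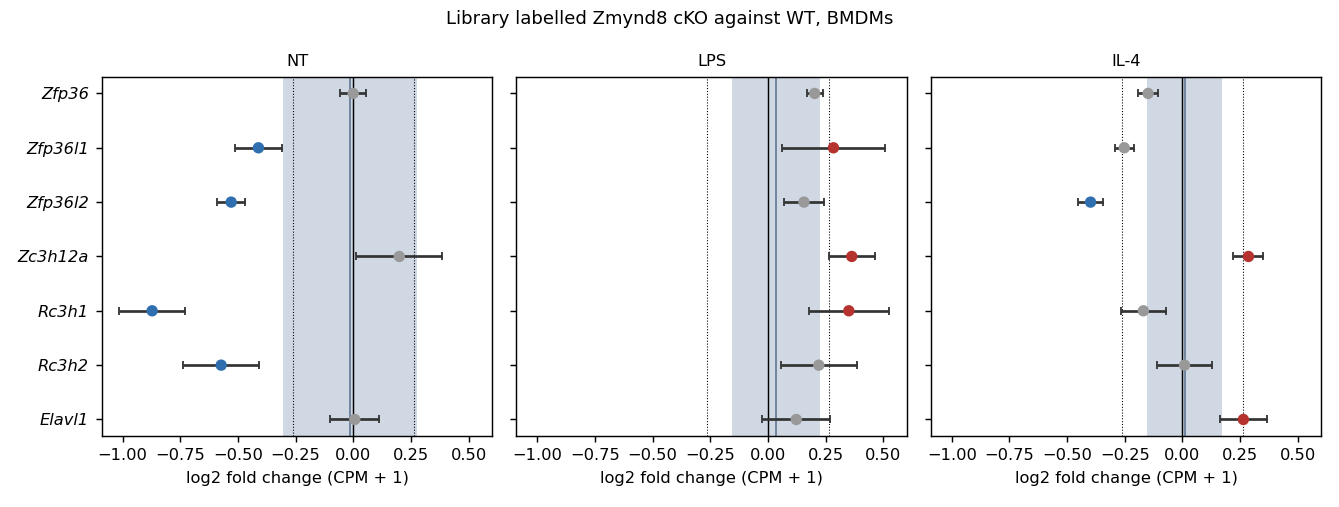
Log2 fold change (CPM + 1) of each member in the library labelled Zmynd8 cKO against WT, by treatment, with 95% counting limits (bars), red for at least 1.2-fold higher, blue lower and grey neither; the line and band mark the median of all tested genes and 1 median absolute deviation on each side. Without treatment 4 members lie left of the dotted line of 1.2-fold, and after LPS all 7 lie right of 0.

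Transcript length moved with these differences. Over 11305 genes with an annotated coding transcript, the median log2 fold change of cKO against WT without treatment was 0.31 in the 25% of genes with the shortest transcripts and -0.36 in the 25% with the longest, and after LPS the trend was reversed, at -0.09 and 0.21. After IL-4 it was small, at 0.04 and -0.04. The longest coding transcripts of Rc3h1 and Rc3h2 have 11006 and 8948 bases, and of 585 tested genes of at least 8000 bases 73.2% were lower without treatment. Genes were then put in 10 bins by length and the median of its bin was taken from each, which left Rc3h1 at -0.39 and Rc3h2 at -0.09 without treatment, and at 0.05 and -0.08 after LPS. Elavl1 (5743 bases) went from 0.01 to 0.33 without treatment, past the fold as higher, whereas in deposited TPM it was past the fold as lower, at -0.43. Zfp36l1 (2990 bases) and Zfp36l2 (3530 bases) moved little, to -0.44 and -0.48 without treatment, and Zc3h12a (2755 bases) stayed at 0.36 after LPS. What gave rise to the length trend was not tested.

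**Figure D4:**
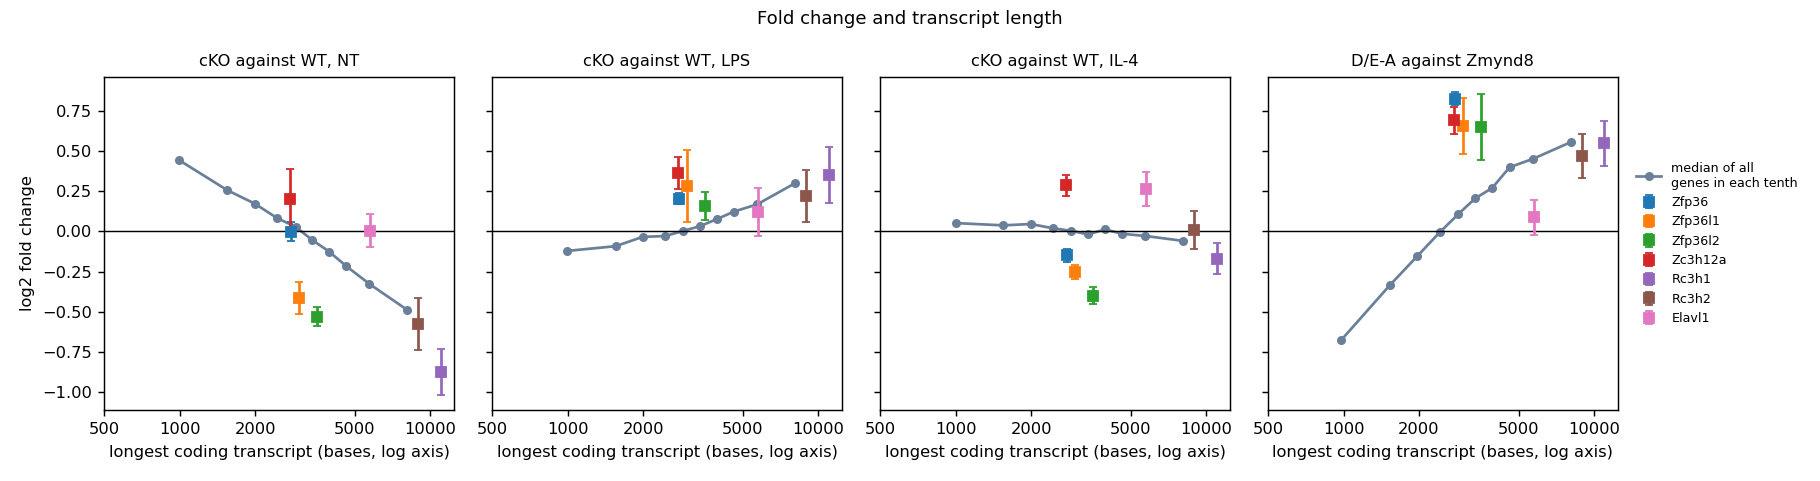
Log2 fold change (y axis; CPM + 1 for BMDMs, normalised reads + 1 for Raw264.7) against longest coding transcript length in bases (log x axis) for the 3 cKO against WT comparisons and for D/E-A against Zmynd8. The line joins the medians of all tested genes in 10 bins by length and squares are the members with 95% counting limits. Rc3h1 and Rc3h2 sit at the long end of the axis, close to the line in D/E-A; without treatment Rc3h2 is close to it, and Rc3h1, Zfp36l1 and Zfp36l2 lie below it.

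In the Raw264.7 Zmynd8 lines, 6 of 7 members were higher in D/E-A than in re-expressed Zmynd8, where 36.7% of 12771 listed genes were higher and 35.9% lower. The D/E-A table listed only genes with reads enough in the Zmynd8 library, and its values are normalised reads. Zfp36 was 13138 in D/E-A and 7421 in Zmynd8, a log2 fold change of 0.82 (0.78 to 0.87). Zc3h12a was 2897 and 1795, at 0.69 (0.61 to 0.78). Zfp36l1 was 697 and 443, at 0.65 (0.48 to 0.83), and Zfp36l2 was 498 and 318, at 0.65 (0.44 to 0.86). Rc3h1 at 0.55 and Rc3h2 at 0.47 complete the 6, and Elavl1 was at 0.09 (-0.02 to 0.20).

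The length trend was steep in this pair too. The median was -0.45 in the shortest 25% and 0.48 in the longest 25%, and with the median of the length bin taken off Rc3h1 was at -0.01 and Rc3h2 at -0.09, while Zfp36, Zc3h12a, Zfp36l1 and Zfp36l2 stood at 0.72, 0.58, 0.55 and 0.44 and Elavl1 was past the fold as lower, at -0.36. The neutrophil marker sum was 4439 CPM in D/E-A and 10423 in Zmynd8, with all 9 markers lower. The macrophage marker sum was 4535 and 2924 CPM, with 7 of 8 markers higher and a median of 1.04. The part of either in the result was not tested.

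In Zmynd8 KO against re-expressed Zmynd8, 2 members were higher and none was lower, where 33.8% of 21302 tested genes were higher and 36.5% lower. Zfp36 was 12300 and 7921 normalised reads, at 0.63 (0.59 to 0.68), and Zc3h12a was 2790 and 1916, at 0.54 (0.46 to 0.63). The other 5 lay between 0.06 and 0.25. The neutrophil sum was 6995 CPM in Zmynd8 KO, and all 8 macrophage markers were higher there. Both comparisons share the library with re-expressed Zmynd8, and their tables were normalised apart. Zfp36 and Zc3h12a were past the fold in both, and the share of all genes past it in both was not counted.

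In the p65 lines, 4 members were higher in K122R than in WT p65, where 30.8% of 19670 tested genes were higher and 32.5% lower. Zfp36l2 was 733 against 452 normalised reads, at 0.70 (0.52 to 0.87). Zc3h12a was 1431 against 920.2, at 0.64 (0.52 to 0.76), Zfp36 was 12943 against 8871, at 0.54 (0.51 to 0.58), and Zfp36l1 was 563 against 447, at 0.33 (0.15 to 0.51). Rc3h1, Rc3h2 and Elavl1 lay between -0.18 and 0.09. In the same pair Zmynd8 was lower, at 1070 against 1826 reads, and the part of the Rela and Zmynd8 levels in these differences was not tested. Divided by library totals instead, Zfp36l1 was at 0.18, under the fold, and Elavl1 at -0.32, past it.

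In p65 KO against WT p65, 2 members were higher and 1 was lower, where 26.3% of 19879 tested genes were higher and 25.7% lower. Zfp36l1 was 965 against 448 normalised reads, at 1.10 (0.94 to 1.27) or 2.15-fold, and 92.3% of tested genes were lower than it. Zfp36l2 was 636 against 453, at 0.49 (0.31 to 0.66), and Rc3h1 was 2802 against 3395, at -0.28 (-0.35 to -0.20). The Rc3h1 call was lost with TMM, at -0.25, and with the length median taken off, at -0.10, and 40.7% of genes of at least 8000 bases were lower. Zfp36 was at 0.13 (0.09 to 0.17) and Zc3h12a at -0.08 (-0.21 to 0.06). Zfp36l1 was the only member past 2-fold in the 4 comparisons of Raw264.7 libraries. Past 2-fold in either direction were 18.4% of genes in D/E-A, 25.6% in Zmynd8 KO, 20% in K122R and 15.8% in p65 KO. The WT p65 library is shared by both p65 comparisons.

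**Figure D5:**
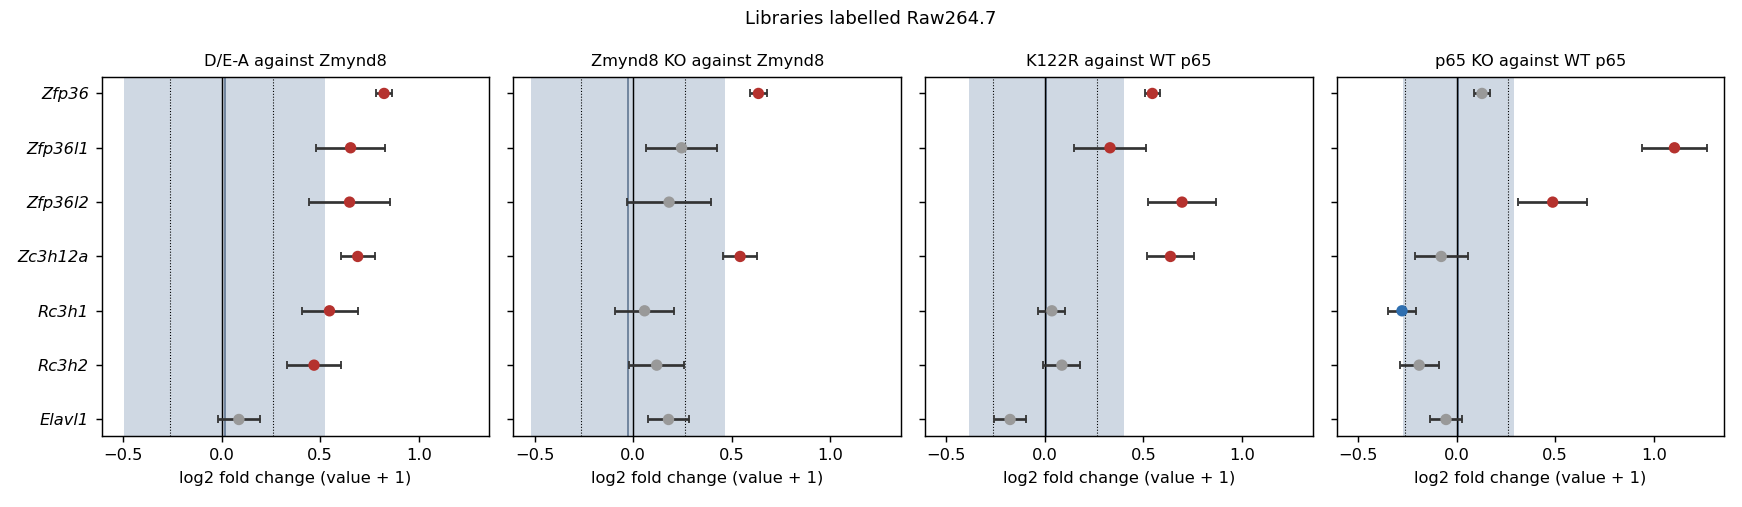
Log2 fold change (normalised reads + 1) of each member in the 4 comparisons of libraries labelled Raw264.7, with 95% counting limits (bars), red for at least 1.2-fold higher, blue lower and grey neither; the line and band mark the median of all tested genes and 1 median absolute deviation on each side. Zfp36 and Zc3h12a lie right of the band in D/E-A, Zmynd8 KO and K122R, and Zfp36l1 stands at 1.10 in p65 KO.

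The decay factors act through shared machinery, which was described from lists of other genes. Of 11 measured subunits of CCR4-NOT, the deadenylase that tristetraprolin and Roquin recruit, none was higher and 4 were lower in cKO without treatment, and 3 were higher and none lower after LPS. Over all genes 29% were lower without treatment and 22.6% were higher after LPS, so these shares are near the background, and the length trends of these pairs were not taken off. Cnot1, the scaffold, was 152 CPM in WT and 99.1 CPM in cKO without treatment, and 86.7 and 114 CPM after LPS. Of 15 decapping and 5'-3' decay genes, 6 were higher and 4 lower in cKO without treatment, where 25% of all genes were higher and 29% lower, and the length trend of this pair was not taken off. The lower ones included Dcp2, the decapping enzyme, at 64.6 CPM in WT and 24.0 in cKO, and Xrn1, the 5'-3' exonuclease, at 43.9 and 21.4 CPM, and the higher ones included Lsm4 and Lsm3 of the LSM ring. After LPS Xrn1 was at 51.1 and 76.1 CPM.

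The RNA exosome, which degrades from the 3' end, was lower after LPS in all 12 members tested, with a median of -2.09 in WT and -2.29 in cKO against -0.58 and -0.55 over all genes. With median-of-ratios scaling those medians were -1.49 and -1.73. Exosc6 had 0 counts after LPS, so its own change is a lower bound in size, and it lies beyond the medians with 3 counts in place of 0. Exosc1 went from 18.0 to 1.65 CPM in WT. Between genotypes without treatment, 7 of 12 exosome genes were higher in cKO and 1 was lower (median 0.41), where 25% and 29% of all genes were. D/E-A had 2 of 12 higher and 7 lower (median -0.53), where 36.7% and 35.9% were. The length trends of these 2 pairs were not taken off. For LPS against NT, 15 genes of the remaining stability factors passed the filter, of which 6 rose past the fold in WT (9 fell past it) and 7 in cKO (6 fell). Over all genes 21.7% were higher and 63% lower in WT, and 25% and 60.5% in cKO. Arid5a, known to protect Il6 mRNA from Regnase-1, went from 9.50 to 185 CPM in WT and from 8.05 to 156 CPM in cKO. Zc3h12c, a relative of Zc3h12a, was 14.2 CPM in WT and 7.66 in cKO without treatment, 18.8 and 32.4 CPM after LPS, and 58.3 and 95.4 CPM after IL-4. In D/E-A 11 of 15 such factors were higher, none was lower, and their median was 0.52, beside 0.02 over all genes, of which 36.7% were higher and 35.9% lower. The length trend of that pair was not taken off.

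The short-lived mRNAs that these factors are known to control were measured beside them. After LPS 8 of 14 tested targets were higher in cKO, 1 was lower, and their median was 0.35, beside a median of 0.03 over all genes, of which 22.6% were higher and 13.3% lower. Il12b was 8.67 CPM in WT and 27.6 in cKO, Il1b 65.3 and 177 CPM, and Ptgs2 175 and 401 CPM, while Il10 was lower at 62.4 and 44.2 CPM. After IL-4 10 of 13 were higher and none was lower (median 1.43), where 17.3% of all genes were higher, and Ccl2 was 12.8 CPM in WT and 69.3 in cKO. In that pair 6 of 8 tested neutrophil markers and 5 of 6 LPS response genes were also higher in cKO and none of either was lower, with medians of 0.31 and 1.55, and their part was not tested. In these 2 pairs the members of the decay set differed by at most 1.32-fold. In D/E-A 4 of 14 targets were higher and 6 were lower, where 36.7% and 35.9% of all genes were. Their median was -0.17, and Ptgs2 was 13092 against 5086 normalised reads while Cxcl1 was 142 against 524. Without treatment 5 of 11 tested targets were higher in cKO and 4 lower, where 25% and 29% of all genes were. Zmynd8 KO had 6 of 16 higher and 5 lower, where 33.8% and 36.5% were. K122R had 9 of 15 higher and 4 lower, where 30.8% and 32.5% were. For p65 KO it was 3 of 15 higher and 6 lower, where 26.3% and 25.7% were.

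Over the 6 BMDM libraries, the genes nearest in pattern to each member were found by the root mean square distance between log2(CPM + 1) values centred on each gene's mean, among 9932 other genes with at least 100 counts on average. The closest to Zfp36 were Hook2 at 0.10, Il17ra at 0.10 and Psip1 at 0.12. Zfp36l1 had no neighbour nearer than Ldlrad3 at 0.18, and Zc3h12a none nearer than Mllt6 at 0.17, followed by Gsap and Sdc4. Zfp36l2 was nearest to Rassf3 at 0.06, Mtmr10 and Rfc1. Rc3h1 was nearest to Zyg11b at 0.03, Pnisr and Zfp445, Rc3h2 to Rnf6 at 0.04, Arl5a and Tgoln1, and Elavl1 to Mafg at 0.04, Ptges3 and Zfp639. No member was among the 3 nearest genes of another member.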

How the data were processed

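Gene symbols, lists and comparisons were chosen with earlier results of these data known. For BMDMs, the authors sequenced polyadenylated RNA (single reads) and used TopHat with the mm10 transcriptome. What they deposited is an estimated count for each gene, not normalised, and TPM. The submitters' processing notes also name CASAVA 1.4 and Bowtie 0.12.2. The aligner of the Raw264.7 libraries is not given in the sources used here. For these the authors deposited a signal, gene reads divided by a size factor per library and table. Whole reads (within 0.02) were recovered for all genes but 1 (Zmynd8 in Zmynd8 KO). The reads of the Zmynd8 library in the D/E-A table were obtained by its ratio to the same library in the other table. The authors' fold changes and p-values in these tables were left out, as were 2 sample columns without a label. Entries that name no gene, 431 for NT and LPS and 2 for IL-4, held no counts.

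Estimated counts were rounded. Log2 fold changes were taken on CPM + 1 (BMDM, mean of at least 10 counts) or on the deposited signal + 1 (Raw264.7, mean of at least 1), and a gene was called at 1.2-fold. The design had foreseen counts or deposited values, and the Raw264.7 tables were used as values. Library totals were 22597408 to 28386612 counts and 15127110 to 21042628 reads. Alternatives were other scalings (median of ratios, TMM from edgeR 4.0.16), a pseudocount of 0.1, no filter, 2-fold, an exact binomial test on the reads, deposited TPM, library totals, and, chosen after seeing the data, subtraction of the median by transcript length. The calculations, in Python 3.11.15 with scipy 1.17.1, were tested on simulated data. All 7 members are named, and of each other list at most the 3 highest and the 3 lowest genes past the fold per comparison, except where a level is followed across conditions. The symbol Itgam occurred more than once and its entry with more reads was used. For Zfp36l1 the nearest gene in pattern alone is named, and the others are not reported here.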

Additional observations from a re-analysis of the deposited data

Results flagged for a closer look

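Of the 7 members, 3 had a contrast past 1.2-fold in opposite directions. The contrasts were cKO against WT, set side by side between treatments, and treatment against NT, between genotypes. LPS was not set against IL-4, and how many of all genes meet this rule was not counted. For genes of at least 8000 bases, 73.2% were lower in cKO without treatment and 58.8% were higher after LPS. The members' differences are between single libraries, and the change between conditions or genotypes was not tested. Zfp36l1 was at -0.41 on the log2 scale in cKO against WT without treatment and at 0.28 after LPS. Rc3h1 was at -0.87 without treatment and at 0.35 after LPS. Rc3h2 was at -0.44 for LPS against NT in WT and at 0.35 in cKO, and its value in WT changes sign with the scaling. Rc3h1 and Rc3h2 have the longest transcripts of the set, and with the median of the length bin subtracted only Zfp36l1 kept opposite directions past 1.2-fold. Its value in cKO against WT after LPS was under that fold, at 0.25, with median-of-ratios scaling and with TMM. None of these 3 pairs of differences therefore held under every alternative.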

How the results depend on the processing

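No paired analysis was possible because each group had 1 library. Over the counts of members called and of pairs of conditions of opposite direction, 83 values under alternatives were within 1.5 times the reported count and 13 were not. Of the other values, those of single members, 332 were classed as the same, 125 as moved and 5 as reversed. At 2-fold no member was called in cKO against WT under any treatment, in D/E-A, in Zmynd8 KO or in K122R (0 in each), 1 was called in p65 KO, 3 in LPS against NT in cKO and 2 in IL-4 against NT in WT. By the rule above, which does not set LPS against IL-4, 0 pairs of conditions were of opposite direction. With deposited TPM 5 members were called in cKO against WT after LPS, and 6 pairs of conditions were of opposite direction, against 3 in CPM and 1 with the length median subtracted. Rc3h2 after LPS in WT reversed to 0.24 with median-of-ratios scaling, 0.12 with TMM and 0.42 with the length median subtracted, and in D/E-A the subtraction turned Rc3h1 to -0.0089 and Rc3h2 to -0.0873. The cause was not tested. Leaving out a library was not possible with 1 per group. Requiring an exact binomial test on the reads as well left 3832 genes higher and 2851 lower in Zmynd8 KO (7196 and 7782 by fold alone), 2554 and 2665 in K122R (6051 and 6402) and 1283 and 1337 in p65 KO (5222 and 5103), and it changed no count of members by over 1.5 times. Scaling by median of ratios moved the share of higher calls in LPS against NT from 25.6% to 50.3% in WT and from 29.3% to 50.6% in cKO, and in IL-4 against NT from 64.1% to 50.5% and from 63.1% to 51.5%. With TMM these shares were 45.0%, 46.7%, 49.4% and 48.8%. Deposited TPM gave 1552 genes higher and 5490 lower in cKO against WT without treatment (3115 and 3614 in CPM), and moved the share from 63.1% to 76.6% in IL-4 against NT in cKO. Library totals moved it from 48.6% to 31.3% in K122R and left 4386 genes higher and 5827 lower in Zmynd8 KO and 2921 and 3033 in p65 KO. With the length median subtracted, which tests fewer genes, 2149 were higher and 2320 lower in cKO against WT without treatment, and the share of higher calls after LPS was 51.5%, from 62.8%.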
